A study of Mus musculus with 12 samples.

Results

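The genes described here are the dopamine receptors Drd1, Drd2, Drd3 and Drd4, the solute carrier gene Slc35d3, and the monoamine oxidases Maoa and Maob, measured in the brains of mice given a choice of ethanol and water. Members were found as every probe set that the platform annotation gives 1 of these symbols alone. All 7 genes were found, on 10 of the 45037 tested probe sets, out of 18193 genes in the series. Leading probe sets were chosen by level alone, as those with the larger 12-array mean. That mean chose 1456051_at (5.33 on the log2 scale) over 1455629_at (4.79) for Drd1, 1428667_at (4.33) over 1442676_at (3.90) for Maoa and 1422829_at (2.98) over 1422830_s_at (2.93) for Drd4. The other 4 genes had 1 probe set each. The genes themselves were proposed with class differences of these data in view, so the p-values below place each gene among all probe sets and are no independent support.

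The arrays form 4 groups of 3: light drinkers and inflexible drinkers, each with prefrontal cortex (PFC) and whole striatum. The animals of every group were Swiss males, an outbred stock, aged 22 weeks when the experiment ended. From an age of 6 weeks they chose between water, 5% ethanol and 10% ethanol over 10 weeks of acquisition. Ethanol was then withheld for 2 weeks, offered again for 2 weeks, offered with bitter quinine (0.005 g/L) for 2 weeks, and offered without it for 1 more week. Light drinkers took more water than ethanol, and inflexible drinkers preferred ethanol at every stage, with quinine too. The average blood ethanol on the labels is 113 ± 11.3 mg/dL for inflexible and 48 ± 13.3 mg/dL for light drinkers, with the type of error not stated. No transgene was involved, and animals given water only are not analysed here. The labels state 1 RNA pool concentration per group, so the 3 arrays of a group may share a pool, and errors and p-values below cover the spread between arrays, which may be technical.

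Dopamine acts through D1-type receptors, which raise cyclic AMP through stimulatory G proteins, and D2-type receptors, which lower it. In the striatum Drd1 marks the projection neurons of the direct pathway and Drd2 those of the indirect pathway, while Drd3 is concentrated in ventral striatal islands and Drd4 is weakly expressed in forebrain. Slc35d3 encodes an orphan carrier of the nucleotide sugar transporter family that has been reported to help D1 receptors leave the endoplasmic reticulum. Monoamine oxidases A and B, on the mitochondrial outer membrane, degrade dopamine after its release.

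Each array value is a log2 level of a probe set, deposited after summary by RMA. Array medians lay between 3.12 and 3.14, and 75.9% of probe sets had a mean below log2 4, so values near 3 are close to the floor of the table and differences there are compressed. The spiked hybridisation controls split the arrays into 5 with high (mean 8.36 to 9.30) and 7 with low levels (6.47 to 7.06). Each PFC group and light striatum held 1 high-control array (replicates 2, 2 and 1), and inflexible striatum held 2 (replicates 1 and 3). No label names this split. Pairs of low-control arrays within a group differed by an SD of 0.071 to 0.118 over probe sets, and pairs of 1 high and 1 low array by 0.204 to 0.247. Of 6 measured cortical excitatory neuron markers 3 were called lower in light striatum than in light PFC by limma (Tbr1, Cux2 and Rorb), and Neurod6 was called higher there (0.79, adjusted p = 7.56e-04). Tbr1, for example, stood at 5.27 ± 0.02 (SD, n = 3) in light PFC and 4.04 ± 0.14 in light striatum. Slc17a7 overlapped, with 4.54 to 7.56 on the light PFC and 3.70 to 7.20 on the light striatal arrays. Its values went with the control split in both regions: 6.43 to 7.56 on the 5 high-control and 3.66 to 4.72 on the 7 low-control arrays. It therefore does not serve to compare the regions here. The striatal gene Ppp1r1b stood at 4.03 ± 0.04 in light PFC and 6.24 ± 0.55 in light striatum. The choroid plexus gene Ttr stood at 10.78 ± 0.43 (SD, n = 3) in inflexible against 4.53 in light PFC, and the myelin gene Mobp at 7.37 ± 0.34 against 5.34 ± 0.27. The source of these differences was not tested.

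Drd1, Drd2 and Slc35d3 were the members with regional levels: in both drinking classes all 3 were higher in striatum. The sequences upstream of their annotated starts are shown because these 3 genes shared that pattern. They come from RefSeq (GRCm38.p6), which listed a promoter window for 6 of the 7 members. Each line is 250 bases that end just before a start site, read 5′ to 3′ on the gene's strand, and Drd1 has 2 listed starts. Capitals mark the GC box GGGCGG and the CCAAT box, on either strand. The TATA box (TATAAA) and the cAMP response element (TGACGTCA) were searched too, on either strand, and gave no match in these windows.
Drd1 upstream start, chr13:54055659-54055908, minus strand: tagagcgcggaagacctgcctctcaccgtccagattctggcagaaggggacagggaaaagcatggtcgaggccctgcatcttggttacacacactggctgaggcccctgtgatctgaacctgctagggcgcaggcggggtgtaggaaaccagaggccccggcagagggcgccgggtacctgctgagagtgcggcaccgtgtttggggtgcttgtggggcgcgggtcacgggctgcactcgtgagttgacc
Drd1 downstream start, chr13:54054781-54055030, minus strand: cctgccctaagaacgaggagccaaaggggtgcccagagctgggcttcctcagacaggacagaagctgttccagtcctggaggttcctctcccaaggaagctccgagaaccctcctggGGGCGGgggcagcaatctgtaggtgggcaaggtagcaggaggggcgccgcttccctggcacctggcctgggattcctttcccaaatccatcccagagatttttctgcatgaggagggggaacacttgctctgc
Drd2, chr9:49340153-49340402, plus strand: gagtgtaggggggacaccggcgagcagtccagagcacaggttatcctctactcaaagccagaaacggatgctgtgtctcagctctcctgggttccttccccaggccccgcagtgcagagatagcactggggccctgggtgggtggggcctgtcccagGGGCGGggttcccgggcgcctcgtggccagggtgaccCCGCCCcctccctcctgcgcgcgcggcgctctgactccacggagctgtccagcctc
Slc35d3, chr10:19851460-19851709, minus strand: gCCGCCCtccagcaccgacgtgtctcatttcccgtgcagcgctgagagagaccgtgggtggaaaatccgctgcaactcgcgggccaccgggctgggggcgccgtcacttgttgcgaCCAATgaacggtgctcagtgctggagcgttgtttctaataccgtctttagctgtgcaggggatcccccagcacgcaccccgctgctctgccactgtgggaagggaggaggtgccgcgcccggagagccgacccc
The Drd2 window held 2 GC boxes, the downstream Drd1 window 1, the upstream Drd1 window 0 and the Slc35d3 window 1, with 1 CCAAT box besides. Members without the regional pattern had matches too. The Drd4 window held 3 GC boxes and 1 CCAAT box, the Maoa window 1 GC box, and the Drd3 window 2 CCAAT boxes and 0 GC boxes. Among all 32851 windows of this length, 32.7% held a GC box, 33.9% a CCAAT box, 12.4% the TATA box and 1.55% the cAMP response element. GC content was 64.0% in the upstream and 60.8% in the downstream Drd1 window, 68.8% for Drd2 and 65.6% for Slc35d3, against a median of 52.4%. Among members without the regional pattern it was 56.8% for Drd4, 56.8% for Maoa and 39.2% for Drd3. These matches describe letters only.

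The regional comparison in light drinkers shares its PFC arrays with the prefrontal class comparison and its striatal arrays with the striatal one. Drd1, the D1 receptor, read 3.81, 3.61 and 3.75 on the light PFC arrays and 5.71, 6.04 and 6.23 on the light striatal arrays. Striatum was higher by 2.27 ± 0.13 (SE), or 4.83-fold (adjusted p = 1.82e-05 by limma). Drd2, the D2 receptor, read 3.08, 3.18 and 2.99 in light PFC and 5.05, 4.97 and 4.95 in light striatum. Its striatal level was higher by 1.91 ± 0.15 (adjusted p = 1.03e-04 by limma). Slc35d3 sat at the floor in light PFC, with 2.94, 2.96 and 2.97, and at 4.13, 4.24 and 4.04 in light striatum. That difference was 1.18 ± 0.07 (adjusted p = 1.80e-05 by limma). No fold is given for Drd2 and Slc35d3, because their light PFC levels lie near the floor and the difference is compressed on that side. In each of these genes every striatal array lay above every PFC array, which was so for 7.69% of all probe sets. The 3 genes were the members that passed among 7 in light drinkers, where 3.32% of all probe sets passed.

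In inflexible drinkers the same 3 of 7 members passed, against 0.773% of all probe sets. The striatal excess was 1.64 ± 0.13 for Drd1 (adjusted p = 6.31e-04 by limma), 1.71 ± 0.15 for Drd2 (9.33e-04) and 1.79 ± 0.07 for Slc35d3 (5.97e-06). All 3 inflexible striatal arrays lay above the 3 inflexible PFC arrays for these genes, as for 5.56% of all probe sets. Drd2 was not called in a fit of these 6 arrays alone (adjusted p = 0.0709 by limma). The order of the 4 groups was the same for the 3 genes: light PFC, inflexible PFC, light striatum, inflexible striatum. No neighbours in that order overlapped. The share of all probe sets with this whole order was not counted, only that of single steps. The middle step, with all inflexible PFC arrays below all light striatal arrays, occurred in 5.26% of all probe sets. The plot of the 7 members over the 12 arrays shows these steps beside the flat profiles of the other 4.

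**Figure D1:**
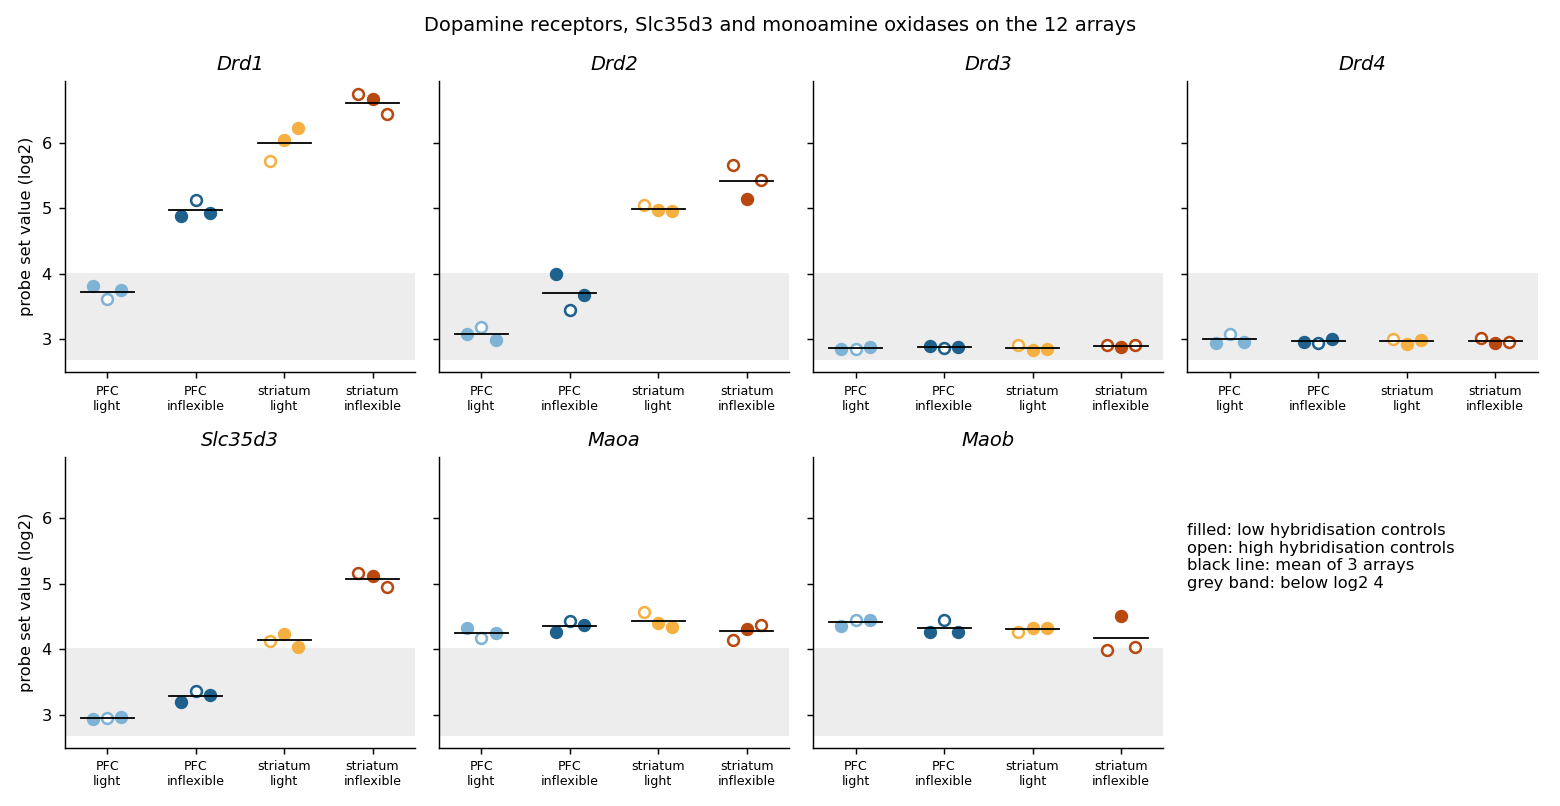
Log2 probe set values (y axis) of the leading probe set of each member on the 12 arrays, by group (x axis), with the mean of 3 arrays as a line and open points for arrays with high hybridisation controls. Drd1, Drd2 and Slc35d3 step up from light PFC (3.72, 3.08 and 2.96) to inflexible striatum (6.61, 5.41 and 5.08), while Drd3 and Drd4 stay near 3 and Maoa and Maob between 3.99 and 4.57.

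The prefrontal comparison asked which members differed between drinkers that kept to ethanol despite quinine and drinkers that preferred water. Drd1 passed the test, alone among the 7 members, where 0.826% of all probe sets passed, that is 372 probe sets. With the replicate number as a block 206 probe sets passed, Drd1 among them (adjusted p = 0.0171 by limma). The inflexible PFC arrays read 4.88, 5.12 and 4.92, each above the light arrays given above. The means were 4.97 ± 0.13 and 3.72 ± 0.10 (SD, n = 3), a rise of 1.25 ± 0.13 (SE) or 2.38-fold (adjusted p = 0.00236 by limma). The other Drd1 probe set read 4.32, 4.50 and 4.47 in inflexible and 3.27, 3.16 and 3.28 in light PFC. It rose by 1.20 ± 0.08 (adjusted p = 2.24e-04 by limma), so both probe sets, read on the same arrays, gave a difference of like size. In light PFC both probe sets lay below log2 4, the other one near the floor, where differences are compressed. No fold is given for it. Leaving out any 1 of the 12 arrays kept the call of the leading Drd1 probe set, with differences from 1.18 to 1.30. On the low-control arrays the difference was 1.12 ± 0.07 (adjusted p = 0.00853 by limma). On the high-control arrays it was 1.52 ± 0.20 and was not called (0.546), with 1 PFC array per class that is assumed to vary like the inflexible striatal pair.

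Drd2 and Slc35d3 were also separated between the PFC groups but did not pass. Drd2 read 4.00, 3.44 and 3.67 in inflexible PFC, a difference of 0.62 ± 0.15 (95% interval 0.28 to 0.95, adjusted p = 0.137 by limma). Its lowest inflexible array was the high-control one. On the low-control arrays Drd2 was called (0.80 ± 0.11, adjusted p = 0.0419 by limma). Its difference was 0.26 on the high-control arrays, where replicate 2 stood alone in each PFC group. Slc35d3 read 3.19, 3.37 and 3.30 in inflexible PFC, 0.33 ± 0.07 above light PFC (95% interval 0.18 to 0.48, adjusted p = 0.0695). It was called with the hybridisation control level as a block (adjusted p = 0.0450) and without striatal inflexible replicate 3 (0.0481). For Drd1, Drd2 and Slc35d3 all 3 inflexible arrays lay above all 3 light arrays, as for 6.48% of all probe sets.

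Other genes of striatal projection neurons moved with the PFC difference in Drd1. Of 6 measured general markers of these neurons 3 rose in inflexible PFC and 0 fell: Rgs9, a regulator of G protein signalling (0.90 ± 0.12), the transcription factor gene Bcl11b (1.04 ± 0.06) and the phosphodiesterase gene Pde10a (1.43 ± 0.17). Of the other 3, Ppp1r1b differed by 0.70 (adjusted p = 0.641 by limma), Foxp1 by -0.0015 (1.00) and Meis2 by -0.47 (0.134), with Meis2 lower in inflexible PFC. The summed linear level of the 6 ran from 307 to 342 on the light PFC arrays and from 459 to 486 on the inflexible ones, against 813 to 1026 in light striatum. The median difference of the 6 was 0.80, where the median over all genes was 0.0018. Both measured markers of the indirect pathway rose, Penk, the enkephalin precursor (1.58 ± 0.13), and Gpr6, an orphan receptor (1.13 ± 0.13), and their summed level ran from 40.55 to 55.85 in light and 136.5 to 151.5 in inflexible PFC. Of 6 direct pathway markers 0 were called by limma and 1 had an unadjusted p under 0.05. Among them Tac1, the substance P precursor, differed by 1.05 (adjusted p = 0.105), and the list's summed level was 123 to 131 in light and 171 to 177 in inflexible PFC. Choroid plexus genes summed to 61.8 to 66.5 in light and 1293 to 2154 in inflexible PFC (1 of 6 rose, Ttr), and oligodendrocyte genes to 568 to 905 and 1384 to 1987 (3 of 6 rose). Of the 6 cortical excitatory neuron markers 1 was called in PFC, Neurod6, which rose by 0.50 (adjusted p = 0.0344 by limma). Cux2 (-0.95, adjusted p = 0.0578), Rorb (-0.62, 0.276) and Tbr1 (-0.24, 0.477) were lower in inflexible PFC without a call, and the summed level of the list was 270.9 to 439.4 on light and 232.5 to 389.1 on inflexible arrays. Slc17a7 widened both ranges. It read 7.56 on the high-control light and 7.51 on the high-control inflexible PFC array, and 3.90 to 4.72 on the low-control PFC arrays. The overlap of the sums therefore does not show that the other markers were alike between classes. The part of these cell types in the Drd1 difference was not tested. In RNA of whole tissue pieces, fewer cells of a type and less RNA per cell cannot be told apart.

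**Figure D2:**
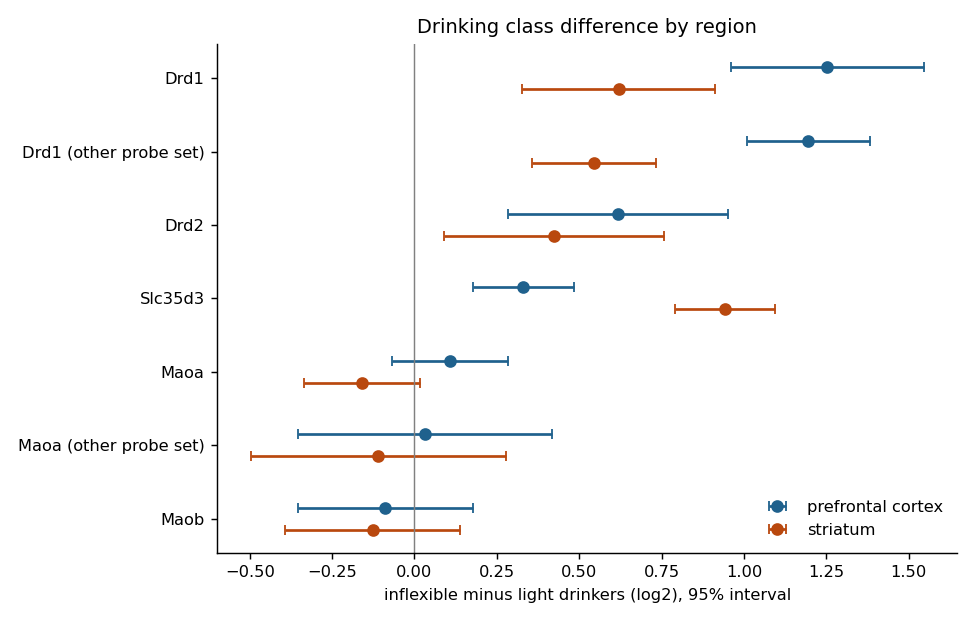
Inflexible minus light drinkers (x axis, log2, with 95% intervals from limma) for each probe set of the members except Drd3 and Drd4, in PFC (blue) and striatum (orange). Both Drd1 probe sets lie further right in PFC (1.25 and 1.20) than in striatum (0.62 and 0.55), Slc35d3 lies further right in striatum (0.94 against 0.33), and the intervals of Maoa and Maob include 0. Light PFC values of Slc35d3, Drd2 and the other Drd1 probe set lie near the floor, where differences are compressed.

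In striatum the comparison of drinking class gave a call for Slc35d3. Its inflexible arrays read 5.17, 5.12 and 4.95, all above the light arrays at 4.13, 4.24 and 4.04. The means were 5.08 ± 0.11 and 4.14 ± 0.10 (SD, n = 3), a rise of 0.94 ± 0.07 (SE) or 1.92-fold (95% interval 0.79 to 1.09, adjusted p = 0.00249 by limma). Of the 7 members 1 passed, where 0.0111% of all probe sets did, that is 5 probe sets. The unadjusted p-value of Slc35d3 was the 2nd smallest of all. The members were picked with such results known, so this place among all probe sets is a description. The call held without any 1 of the 12 arrays (differences from 0.90 to 1.01, adjusted p from 0.00438 to 0.0307 by limma). Smaller fits gave like differences without a call: 0.97 ± 0.09 on the low-control arrays (adjusted p = 0.118 by limma), 0.93 ± 0.13 on the high-control arrays (0.784), each with 1 lone striatal array assumed to vary like the rest, and 0.94 ± 0.08 on the 6 striatal arrays alone (0.285).

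The receptor genes were higher in the same direction in striatum and did not pass. Drd1 read 6.74, 6.66 and 6.43 in inflexible striatum, against 5.71, 6.04 and 6.23 in light striatum. The difference was 0.62 ± 0.13 (95% interval 0.33 to 0.91, adjusted p = 0.415 by limma). The other Drd1 probe set differed by 0.55 ± 0.08 (95% interval 0.36 to 0.73, adjusted p = 0.164). Drd2 read 5.66, 5.14 and 5.43 in inflexible striatum, a difference of 0.42 ± 0.15 from light striatum (95% interval 0.09 to 0.76, adjusted p = 1.00). Its 2 higher inflexible arrays were the high-control ones. On the low-control arrays, where replicate 2 was the only inflexible striatal array, the Drd2 difference was 0.18. It was 0.50 on the high-control arrays, where replicate 1 was the only light striatal array. For Drd1, Drd2 and Slc35d3 the striatal groups did not overlap, and the inflexible arrays all lay above the light ones, as for 4.2% of all probe sets.

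Marker genes of the same neurons stood beside these striatal values with no call. Of the 6 general striatal projection neuron markers 0 passed in limma, 3 had an unadjusted p under 0.05 and 5 were higher in inflexible striatum, with a median difference of 0.25. Their summed level was 813 to 1026 on light and 957 to 1242 on inflexible arrays, which overlap. The largest of these differences was in Ppp1r1b, the DARPP-32 gene (0.89, adjusted p = 1.00), and the smallest p belonged to the transcription factor gene Meis2 (0.60, adjusted p = 0.302). Direct pathway markers summed to 225.2 to 299.6 in light and 321.4 to 482.5 in inflexible striatum, with Tac1 differing by 0.79 (adjusted p = 1.00). Indirect pathway markers summed to 366 to 417 in light and 528 to 622 in inflexible striatum, which do not overlap, with Penk differing by 0.58 (adjusted p = 0.508) and Gpr6 by 0.63 (0.407). The part of cell content in the Slc35d3, Drd1 and Drd2 differences was not tested.

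The direct test of whether the class difference itself differed between regions gave opposite signs for Drd1 and Slc35d3. For Slc35d3 the striatal difference exceeded the prefrontal one by 0.61 ± 0.10 (95% interval 0.40 to 0.83, adjusted p = 0.0377 by limma). It was the 1 member called of 7, against 0.313% of all probe sets. This call was kept without PFC inflexible replicate 2 (adjusted p = 0.0469), striatal inflexible replicate 3 (0.0337) or striatal light replicate 2 (0.0447). It was lost without PFC inflexible replicates 1 or 3 (0.0936 and 0.111), PFC light replicates 1, 2 or 3 (0.108, 0.0724 and 0.121), striatal inflexible replicates 1 or 2 (0.0955 and 0.0816) and striatal light replicates 1 or 3 (0.0817 and 0.0908). It was also lost with the replicate number as a block (adjusted p = 0.0700 by limma). The low level of Slc35d3 in PFC, where the scale is compressed, enters this difference. For Drd1 the striatal difference was smaller than the prefrontal one, by -0.63 ± 0.19 (adjusted p = 0.384) on the leading and -0.65 ± 0.12 (adjusted p = 0.0701) on the other probe set. For Drd2 the value was -0.19 ± 0.21 (95% interval -0.67 to 0.28, adjusted p = 0.999).

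Drd1, Drd2 and Slc35d3 were also set against the mean of the 6 general striatal projection neuron markers on the same array. Only the change of this log2 difference between groups has a meaning, since levels of different probe sets are not comparable. For Drd1 it was -1.72 ± 0.15 (SD, n = 3) in light and -1.07 ± 0.12 in inflexible PFC, with no overlap, and -0.99 ± 0.43 and -0.73 ± 0.31 in light and inflexible striatum, which overlap. For Drd2 it was -1.99 ± 0.12 in light and -1.93 ± 0.20 in inflexible striatum, which overlap. Slc35d3 and Drd2 lie near the floor in light PFC and cannot follow the markers down there, so their PFC values on this measure cannot be compared between classes. In striatum the Slc35d3 value was -2.84 ± 0.17 in light and -2.26 ± 0.27 in inflexible drinkers, higher on every inflexible array. Against the mean of 6 direct pathway markers Drd1 was again higher on every inflexible PFC array (-0.22 ± 0.06 in light, 0.78 ± 0.15 in inflexible). On this measure Drd1 was also higher on every inflexible striatal array (1.42 ± 0.23 and 1.82 ± 0.14), as was Slc35d3 (-0.44 ± 0.09 and 0.29 ± 0.11). Of these 6 direct pathway markers 4 had a mean below log2 4 in each PFC group and in inflexible striatum, and 3 in light striatum. Differences are compressed at low levels, which limits how far this mean can follow a rise. The 2 with a 12-array mean above log2 4, Tac1 and Sfxn1, differed by 0.79 and 0.17 in striatum, with Drd1 at 0.62. In PFC these 2 differed by 1.05 and 0.06, with Drd1 at 1.25. The 6 general markers did not move alike between classes. In PFC their differences ran from -0.47 (Meis2) to 1.43 (Pde10a), with Drd1 at 1.25. In striatum they ran from -0.01 (Bcl11b) to 0.89 (Ppp1r1b), with Slc35d3 at 0.94. The marker mean thus depends on which markers it holds. These are descriptions with no test, and the share of all probe sets that separate on these measures was not counted.

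**Figure D3:**
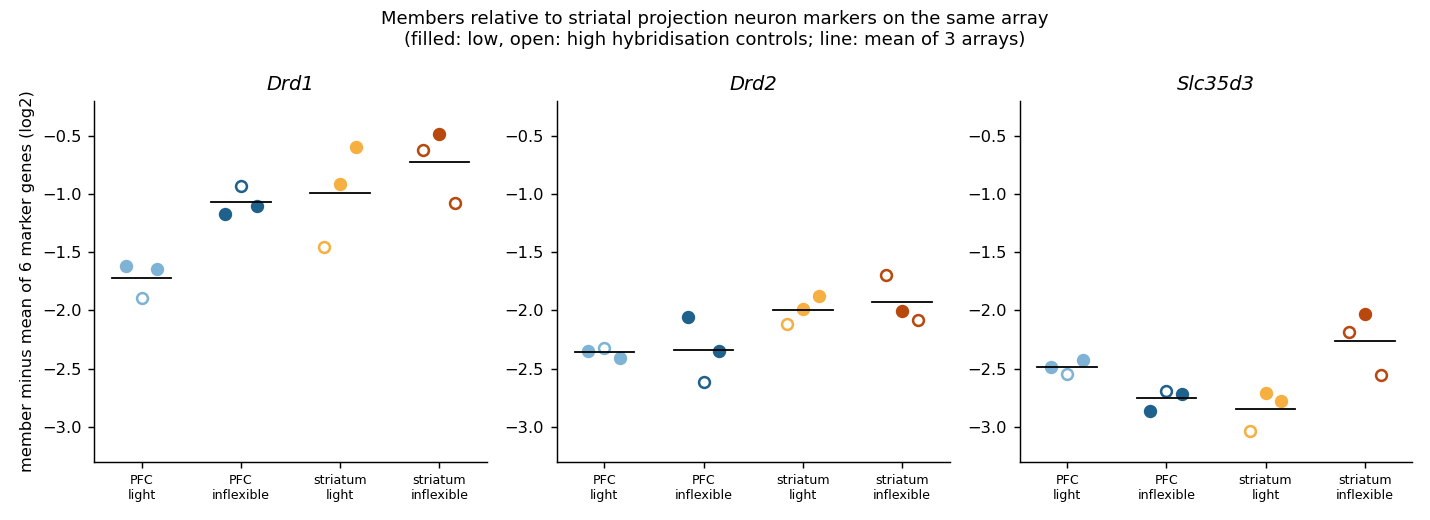
Log2 value of Drd1, Drd2 and Slc35d3 minus the mean of 6 striatal projection neuron markers on the same array (y axis), by group (x axis), with open points for arrays with high hybridisation controls and the mean of 3 arrays as a line. Drd1 is higher in inflexible (-1.07) than light PFC (-1.72), Slc35d3 is higher in inflexible (-2.26) than light striatum (-2.84), and Drd2 overlaps between classes in striatum. Drd2 and Slc35d3 lie near the floor in light PFC. The 6 markers themselves differ unequally between classes, in PFC from -0.47 (Meis2) to 1.43 (Pde10a).

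Drd3, the D3 receptor, and Drd4, the D4 receptor, were at the floor on every array. Drd3 lay between 2.84 and 2.92 over the 12 arrays, and 6.41% of probe sets had a lower mean. The leading Drd4 probe set lay between 2.92 and 3.08 and the other between 2.85 and 3.06. No group stood apart for either gene, and no difference is given between values at the floor. Expression of these receptors in some of the cells is not detectable at this signal.

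The dopamine-degrading enzymes had low, even levels. Maoa and Maob are neighbours on chromosome X with 0 protein-coding genes between them in the RefSeq table. Maoa read 4.32, 4.17 and 4.26 in light and 4.26, 4.44 and 4.38 in inflexible PFC. The striatal arrays read 4.57, 4.40 and 4.34 in light and 4.15, 4.31 and 4.38 in inflexible drinkers, and the classes overlapped in both regions. The class difference was 0.11 ± 0.08 in PFC (95% interval -0.07 to 0.28, adjusted p = 0.940 by limma) and -0.16 ± 0.08 in striatum (95% interval -0.34 to 0.02, adjusted p = 1.00). The striatal minus prefrontal difference of these was -0.27 ± 0.11 (adjusted p = 0.827). In light drinkers the 3 striatal arrays lay above the 3 PFC arrays, without a call (0.19 ± 0.08, adjusted p = 0.389 by limma), as for 7.69% of all probe sets. On the other Maoa probe set the class differences were 0.03 ± 0.17 and -0.11 ± 0.17, with inflexible striatal arrays spread from 3.55 to 4.33.

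Maob, the form known from astrocytes and serotonin neurons, read 4.35, 4.45 and 4.44 in light and 4.27, 4.45 and 4.26 in inflexible PFC. In striatum it read 4.26, 4.33 and 4.32 in light and 3.99, 4.51 and 4.04 in inflexible drinkers. The 2 low inflexible striatal arrays were the high-control ones. The difference was -0.09 ± 0.12 in PFC (95% interval -0.35 to 0.18, adjusted p = 0.999 by limma) and -0.13 ± 0.12 in striatum (95% interval -0.39 to 0.14, adjusted p = 1.00). On the low-control arrays, where replicate 2 was the only inflexible striatal array, the striatal difference had the other sign (0.18). In light drinkers the 3 striatal arrays lay below the 3 PFC arrays, without a call (-0.11 ± 0.12, adjusted p = 0.908 by limma), as for 8.65% of all probe sets. Over the 4 class comparisons of the leading Maoa and Maob probe sets the 95% intervals ran from -0.39 to 0.28. Each comparison is compatible with any class difference inside its own interval. These intervals give no limit of detection. Astrocyte markers, for comparison, had 0 of 7 called for drinking class in either region, with median differences of 0.03 in PFC and -0.03 in striatum.

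Other genes of dopamine supply gave little signal in these regions, which receive dopamine fibres from the midbrain. Of the 9 measured genes of synthesis, cofactor supply and transport, 8 had a group mean below log2 4 in light PFC. Th, the rate-limiting enzyme of dopamine synthesis, lay at 2.96 to 3.05 as group means, the dopamine transporter gene Slc6a3 at 2.93 to 2.96 and the vesicular transporter gene Slc18a2 at 2.88 to 2.92. In limma 0 of 9 passed for drinking class in PFC (2 with an unadjusted p under 0.05) and 0 in striatum (1 unadjusted). The smallest p-values in PFC belonged to Ddc, the enzyme that makes dopamine from L-DOPA (0.24, adjusted p = 0.249), and Qdpr, which regenerates the cofactor of Th (0.46, adjusted p = 0.445). Qdpr was the 1 gene called between regions in light drinkers, higher in striatum by 0.82 (adjusted p = 0.0254). Midbrain dopamine neuron markers were low: 8 of 9 lay below log2 4 in every group, their summed level ran from 79.6 to 145 over the 12 arrays, and the remaining one was Nr4a2, a factor that other neurons express too (4.16 to 5.82 as group means).

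Of 8 measured genes for other breakdown steps 0 passed for drinking class by limma in PFC or striatum, with 1 and 2 at an unadjusted p under 0.05, and median differences were 0.07 and -0.05. The 2 with the smallest p in PFC were Sult1a1, a sulfotransferase gene (0.16, adjusted p = 0.356), and Aldh1a1, an aldehyde dehydrogenase gene (0.18, adjusted p = 0.836). Among 12 receptor partners and G protein pathway genes, 0 passed for drinking class in either region (2 unadjusted in each), with medians of -0.02 in PFC and 0.14 in striatum. Between regions 3 of the 12 were higher in striatum and 0 lower, in each drinking class: Ppp1r1b (2.21 in light drinkers), Gng7, a G protein gamma subunit (2.25), and Adcy5, the main striatal adenylyl cyclase (1.63). For drinking class in PFC the smallest p-values were those of Gng7 (0.86, adjusted p = 0.339) and Ppp1r1b (0.70, adjusted p = 0.641), which is also on the marker list above. Drd5 and Adora2a are not analysed here. The heat map of these lists shows which genes stay near the floor.

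**Figure D4:**
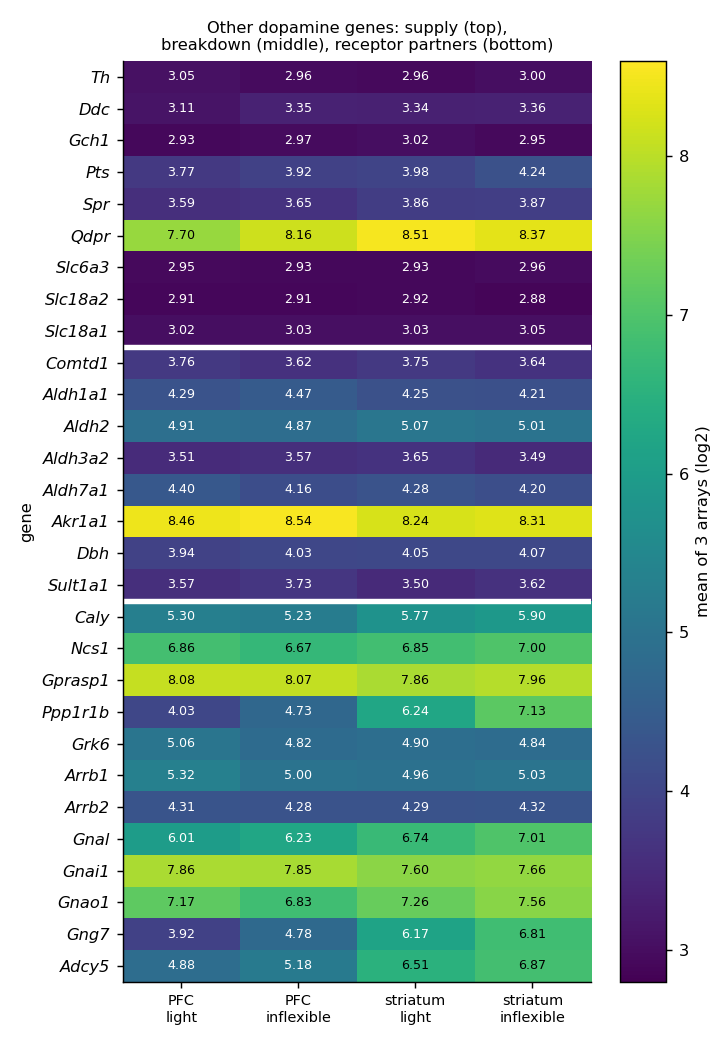
Mean log2 value of 3 arrays (colour and printed number) for the other dopamine genes (rows) in the 4 groups (columns), in blocks for supply, breakdown and receptor partners. Th, Slc6a3 and Slc18a2 lie near 3 in each group, and Ppp1r1b, Gng7 and Adcy5 climb from PFC to striatum (Gng7 from 3.92 in light PFC to 6.81 in inflexible striatum).

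The genes whose profiles lay closest to the 3 regional members were sought among 6467 named genes with a mean above log2 4. Likeness was the root mean square difference between profiles over the 12 arrays, each centred on its own mean. Closest to Drd1 were Tac1 (0.20 on the log2 scale), Gpr6 (0.24), Rgs9 (0.27), the sodium channel subunit gene Scn4b (0.31) and Pde10a (0.35). Closest to Drd2 were Rgs9 (0.15), Adcy5 (0.19), the phosphodiesterase gene Pde1b (0.20), the small GTPase gene Rasd2 (0.26) and the retinoic acid receptor gene Rarb (0.28). Closest to Slc35d3 were Rarb (0.24), Strip2 (0.24), Necab2, a calcium-binding protein gene (0.29), Adcy5 (0.29) and Pde7b, another phosphodiesterase gene (0.30). Among the members themselves Slc35d3 lay nearer to Drd2 (0.33) than to Drd1 (0.44), and Drd1 and Drd2 were 0.35 apart. The distance is not scaled, so it also reflects the span of the group means: 2.125 for Slc35d3, 2.328 for Drd2 and 2.891 for Drd1. Slc35d3 and Drd2 both lay near the floor in light PFC. Strip2 resembled Slc35d3 in the size of its striatal class difference (0.90, against 0.63 in PFC). These distances share arrays and the regional contrast and carry no test.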

How the data were processed

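Total RNA of PFC and whole striatum was hybridised to 1-colour arrays. The authors deposited summarised log2 values of 45101 probe sets on 12 arrays. Per the submitters' processing notes, RMA in affy was used, and neither version is given. The log base was read from the values. The 64 control probe sets were left out, and 45037 were tested. The platform annotation gave 34945 a single symbol, 932 several and 9160 none, and 34741 gene IDs matched RefSeq, with 0 symbols changed. For genes with several probe sets, the probe set with the highest mean represented the gene.

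Group means (4) were estimated from the 12 arrays for every probe set in limma 3.58.1 in R 4.3.3 (8 residual degrees of freedom, two-sided tests, Benjamini-Hochberg adjustment over 45037 probe sets, call at an adjusted p under 0.05). Contrasts were drinking class in each region, its difference between regions, and region in each class. The fit was tested on simulated data. Figures were drawn with matplotlib 3.10.9 in Python 3.11.15.

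The members, lists of genes and tests were chosen with earlier results of these data known. Every member is described. Genes of the lists are named where called, otherwise those with the smallest p or as background, and for likeness the 5 nearest to each member whose group means span more than 1. The number of arrays limits the precision. Deviations of same-numbered arrays correlated from 0.536 to 0.77 between the PFC groups, where replicate 2 was the high-control array in both, and from -0.725 to 0.77 over all groups. Differently numbered low-control PFC arrays correlated alike, at 0.548 (light 1 with inflexible 3) and 0.689 (light 3 with inflexible 1). These values thus do not show that the numbers pair arrays. No 2 arrays were identical. Alternatives were a replicate block, the hybridisation control level as a block and as subsets, quantile normalisation, a filter on low values, averaged probe sets, fits of 6 arrays and leaving out each array.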

Additional observations from a re-analysis of the deposited data

Results flagged for a closer look

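The drinking class difference of Slc35d3 differed between regions, by 0.61 on the log2 scale (striatal minus prefrontal) in a test of that difference itself by limma (adjusted p = 0.0377 in the fit of 12 arrays, and from 0.0274 to 0.652 over the other settings that used all replicates or a control level, and from 0.0337 to 0.121 without single arrays). All 3 inflexible arrays lay above all 3 light arrays in both regions. The call was kept in 3 of the 12 fits without single arrays, and lost with the replicate number as a block. Slc35d3 lay at the floor in light PFC (2.94 to 2.97), where differences are compressed, and this enters the value of 0.61.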

How the results depend on the processing

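The number of members called, out of 7, was 1 for drinking class in PFC. It was 2 with the hybridisation control level as a block, 2 on the low-control arrays and 0 on the high-control arrays (1 at an unadjusted p under 0.05), and from 1 to 2 without single arrays. In striatum it was 1. It was 0 on the low-control arrays (3 unadjusted), on the high-control arrays (4 unadjusted), in the fit of 6 arrays (3 unadjusted) and with the filter at log2 4, which leaves out Slc35d3, and it stayed at 1 without each array. For the difference between regions it was 1. It was 0 with the replicate block (2 unadjusted), on the low-control (4 unadjusted) and high-control arrays (0 unadjusted) and with the filter, and from 0 to 1 without single arrays. With the replicate block the Slc35d3 value of 0.61 had an adjusted p of 0.0700, and this block changed no other call of a member. For region the count was 3 in light and 3 in inflexible drinkers, and 0 on the high-control arrays (3 and 4 unadjusted), in a fit with 1 residual degree of freedom.

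Values that changed sign belonged to members that were not called. Maob gave 0.18 for drinking class in striatum, 0.32 for the difference between regions and 0.24 for region in inflexible drinkers on the low-control arrays. These Maob values rest on inflexible striatal replicate 2, the only low-control array of its group. Drd2 gave 0.24 for the difference between regions on the high-control arrays. The other Maoa probe set gave 0.0083, 9e-04 and -0.087 there for striatum, the difference between regions and region in light drinkers. Without single arrays that probe set ran from -0.027 to 0.10 in PFC, -0.35 to 0.042 in striatum, -0.38 to 0.010 for the difference and -0.30 to 0.093 for region in inflexible drinkers, and Maob from -0.20 to 0.058 for the difference. The cause was not tested.

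Over all probe sets the calls were 372 in PFC, 5 in striatum, 141 for the difference and 1496 and 348 for region in light and inflexible drinkers. With the control level as a block they were 1119, 34, 443, 3152 and 972, and on the high-control arrays 0 each (4049, 2783, 3476, 5387 and 4983 unadjusted). On the low-control arrays they were 1243 in PFC, 0 in striatum (4056 unadjusted) and 3775 for region in light drinkers. The replicate block gave 206 in PFC and 51 for the difference, the filter 215 in PFC and 2 in striatum, and fits of 6 arrays 198 in PFC, 1 in striatum and 61 for region in inflexible drinkers. Without single arrays they ran from 157 to 394, 2 to 9, 62 to 161, 942 to 1607 and 158 to 404. The signal of Drd3, Drd4 and, in PFC, Slc35d3 at the floor limits what their values can show.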
